A study of Mus musculus with 9 samples.

Results

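The chromosome ends examined here were the first assembled megabase next to the centromere and the last listed megabase next to the telomere of each of the 19 mouse autosomes, read as CpG methylation in 1-kb tiles. A tile was taken as centromere-near in the 1 Mb that follows the unread placeholder with which mouse assemblies open, up to base 4000000 of its chromosome, and as telomere-near within 1 Mb below the highest base listed for that chromosome in any library. A tile was kept if at least 3 CpGs and at least 20 calls were listed in every library, a call being 1 read base at a CpG cytosine. Of 1033962 autosomal tiles that passed, 12491 lay at the ends, 6670 of them centromere-near and 5821 telomere-near, and the other 1021471 are called interior. The end tiles that passed were 39.5% of 16894 listed centromere-near tiles and 33.6% of 17344 listed telomere-near tiles, against 45.4% in the interior. Tiles just inside the minimum, with exactly 3 CpGs in the thinnest library, numbered 2999 and read 84.2% on average, and the 4142 tiles just outside it, with 2 CpGs there, read 83.8%.

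The tissue was the nucleus accumbens, a ventral striatal region of the reward circuit, taken as frozen punches from male C57BL/6J mice of 8 weeks of age, an inbred strain with no transgene named in the labels. Whole-genome bisulfite sequencing was done on 5 mice labelled Control, numbered 2, 3, 4, 5 and 8, and on 4 labelled Susceptible, numbered 2, 3, 6 and 7, with 1 library a mouse. The stressor was chronic social defeat, with 10 daily defeats by a CD1 aggressor. That treatment is written for every library, and the sources used here do not say what the Control mice went through or by which score mice were called susceptible. The p-values below measure the spread between these mice. Values of single libraries are given in the order Control 2, 3, 4, 5, 8 and Susceptible 2, 3, 6, 7 throughout.

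Mouse chromosomes carry the centromere at 1 extreme, so that the long satellite arrays of the centromere and pericentromere lie directly before the first assembled base, and the telomere repeat lies directly after the last. The satellites are packed into heterochromatin marked by methylated DNA and by methylation of histones H3 and H4, while the subtelomere, the sequence inside the telomere repeat, holds ordinary genes next to repeats and young gene families. CpG islands, the CpG-dense stretches at many gene starts, are usually unmethylated at both kinds of end, as elsewhere.

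Promoters in CpG-dense end tiles show what unmethylated sequence at an end looks like. Those below are of RefSeq genes, build GRCm38.p6, with a start in 1 of the 5 CpG-densest tiles of an end and a promoter read in every library, up to 3 an end by CG count; the promoters shown lie in 4 of those 10 tiles. Each is the 250 bases before a gene start, 5′ to 3′, with CG in capitals. The Dtnb promoter (dystrobrevin beta, a cytoskeletal scaffold protein) lies at chr12:3572452-3572701 on the plus strand, and that of Patz1 (a zinc-finger transcription regulator) at chr11:3290207-3290456 on the plus strand, both centromere-near. At the telomere-near end of chromosome 4, Sdf4 (a calcium-binding protein of the Golgi) on the plus strand at chr4:155992593-155992842 and B3galt6 (a galactosyltransferase of the glycosaminoglycan linker) on the minus strand at chr4:155992679-155992928 face away from each other and share 164 bases. The Dennd5b promoter (a regulator of Rab proteins) lies at chr6:149101681-149101930 on the minus strand.
Dtnb: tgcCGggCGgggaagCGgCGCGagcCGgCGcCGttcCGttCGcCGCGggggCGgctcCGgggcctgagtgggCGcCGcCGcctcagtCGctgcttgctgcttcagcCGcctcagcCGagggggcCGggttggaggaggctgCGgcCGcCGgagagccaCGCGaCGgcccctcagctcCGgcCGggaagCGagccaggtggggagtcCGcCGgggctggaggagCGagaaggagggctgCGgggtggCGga
Patz1: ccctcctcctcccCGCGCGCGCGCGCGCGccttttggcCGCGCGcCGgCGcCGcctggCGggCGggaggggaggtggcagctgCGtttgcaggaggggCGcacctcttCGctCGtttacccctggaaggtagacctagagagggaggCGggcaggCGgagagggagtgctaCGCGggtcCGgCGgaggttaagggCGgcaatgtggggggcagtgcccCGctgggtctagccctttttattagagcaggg
Sdf4: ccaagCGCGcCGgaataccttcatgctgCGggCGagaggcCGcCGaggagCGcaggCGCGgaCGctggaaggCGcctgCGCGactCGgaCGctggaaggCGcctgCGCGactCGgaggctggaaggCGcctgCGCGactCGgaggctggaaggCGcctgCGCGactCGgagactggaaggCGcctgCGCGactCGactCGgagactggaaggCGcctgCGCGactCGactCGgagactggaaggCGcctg
B3galt6: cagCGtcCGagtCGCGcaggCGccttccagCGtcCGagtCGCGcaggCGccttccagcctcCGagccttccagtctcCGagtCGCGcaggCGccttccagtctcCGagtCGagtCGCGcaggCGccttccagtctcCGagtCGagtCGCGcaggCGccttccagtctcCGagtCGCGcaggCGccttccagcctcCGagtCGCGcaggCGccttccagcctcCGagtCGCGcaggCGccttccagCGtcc
Dennd5b: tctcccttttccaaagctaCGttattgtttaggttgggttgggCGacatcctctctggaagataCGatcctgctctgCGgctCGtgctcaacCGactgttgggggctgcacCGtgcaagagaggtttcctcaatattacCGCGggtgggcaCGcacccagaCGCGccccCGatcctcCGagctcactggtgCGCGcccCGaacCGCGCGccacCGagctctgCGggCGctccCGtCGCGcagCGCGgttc
These 5 windows hold 35, 28, 39, 38 and 28 CG in the order printed, where the median over the 17147 autosomal promoters read in every library is 14. Each 300-base promoter window (250 bases before and 50 after the start) was almost free of methylation, with a mean over the 9 libraries of 1.58% for Dtnb, 1.33% for Patz1, 0.993% for Sdf4, 1.03% for B3galt6 and 1.04% for Dennd5b. The Sdf4 and B3galt6 windows are built on a tandem unit, CTGGAAGGCGCCTGCGCGAC, found 6 times in the Sdf4 window and 8 times in the B3galt6 window when both strands were searched. That unit occurs in 4 of 31396 promoters of the table (0.0127%), all of them of these genes.

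Another pair of promoters shows the opposite and the variable case, and was chosen after its values were seen. Tex19.1, a germ-cell gene that restrains transposons, lies at the telomere-near end of chromosome 11 at chr11:121145893-121146142 on the plus strand, and Gm30528, a long noncoding RNA gene, at the telomere-near end of chromosome 15 at chr15:103060556-103060805 on the minus strand.
Tex19.1: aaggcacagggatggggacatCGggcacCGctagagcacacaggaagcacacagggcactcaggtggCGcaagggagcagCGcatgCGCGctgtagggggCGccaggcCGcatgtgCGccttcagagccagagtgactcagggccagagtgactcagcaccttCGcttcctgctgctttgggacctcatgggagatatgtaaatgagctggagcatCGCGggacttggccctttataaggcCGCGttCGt
Gm30528: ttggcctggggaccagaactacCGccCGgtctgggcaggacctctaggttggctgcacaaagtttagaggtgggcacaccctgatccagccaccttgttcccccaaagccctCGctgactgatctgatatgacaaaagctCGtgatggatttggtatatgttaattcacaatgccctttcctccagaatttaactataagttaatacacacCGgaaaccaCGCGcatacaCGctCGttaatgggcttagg
The Tex19.1 window, with 15 CG in these bases, was methylated at 91.8% on average and the Gm30528 window, with 9 CG, at 36.2%.

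Listed calls summed to between 313475624 and 430312082 per Control library and between 432409939 and 570984634 per Susceptible library, and only cytosines with at least 10 calls are listed. The end tiles held 1888474 to 3262924 calls per library at the centromere-near and 1524273 to 2823860 at the telomere-near side. The median over all tiles and libraries together was 225 and 229 calls per tile. The strands of a CpG, which should read alike, were compared at CpGs read on both strands with a level of 20 to 80%. In centromere-near tiles their mean squared difference was 18.2 and 19.2 times that of binomial sampling in Control 5 and Control 8. It was 2.57 to 6.31 times in the other 7 libraries. As a check of the tissue label, gene bodies of 10 genes that mark striatal projection neurons averaged 52.1% (lowest library 49.4%, highest 58.0%), below those of oligodendrocyte, astrocyte, liver and skeletal muscle genes, which averaged 69.9 to 80.8%. In bulk DNA, fewer cells of a methylated type and a lower level in each cell cannot be told apart, and bisulfite does not separate methylated from hydroxymethylated cytosine.

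Both ends were methylated at most tiles, and less so on average than the interior. The mean tile level, the average over tiles of methylated calls divided by all calls, was 81.2% at the centromere-near, 79.3% at the telomere-near and 82.7% at the interior tiles. At the centromere-near end the level was 81.3, 81.3, 80.9, 81.6 and 81.1% in the Control libraries and 81.4, 81.4, 82.1 and 80.02% in the Susceptible libraries. At the telomere-near end it was 79.5, 79.3, 79.1, 79.5 and 79.5% in the same Control order and 79.5, 79.6, 80.03 and 77.9% in the Susceptible order. Susceptible 6 was the highest and Susceptible 7 the lowest library at both ends and in the interior (83.7 and 80.9%), and the Control values lay between them.

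**Figure D1:**
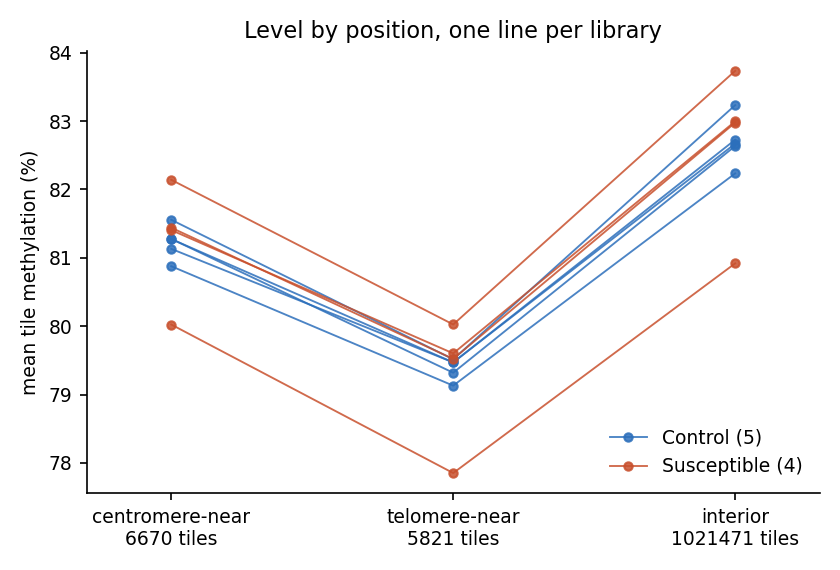
Mean tile methylation in percent (vertical axis, not starting at 0) at the centromere-near, telomere-near and interior tiles, with 1 line per library, blue for Control and orange for Susceptible. All 9 lines fall from 81.2% on average at the centromere-near to 79.3% at the telomere-near end and rise to 82.7% in the interior, and the Susceptible lines include the highest and the lowest.

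Within libraries, the centromere-near end stood 1.91 ± 0.174 points (SD, n = 9) above the telomere-near end and 1.44 points below the interior (difference -1.44 ± 0.232), and the telomere-near end stood 3.36 points below the interior (difference -3.36 ± 0.237). Each difference had the same sign in 9 of 9 libraries, with an exact sign permutation p of 0.00391, the smallest that 9 libraries allow (adjusted over 3 differences, 0.00391). That test covers the spread between libraries and not between chromosomes, and the chromosomes were split. The centromere-near end was above the telomere-near end on 10 of 19 chromosomes and below on 9, with a median difference of 0.190 points, and it was above the interior on 10, with a median of 0.121 points. The telomere-near end was above the interior on 9 and below on 10, with a median of -0.192 points. Without chromosome 15 the gap between the ends was 0.371 points and that of the telomere-near end from the interior -1.92 points. With ends of 500 kb these were -0.192 (exact p = 0.113) and -1.71 points, and over all calls rather than tiles 7.92 and -9.79 points. With no minimum for tiles they were 0.517 and -2.15 points, with at least 5 CpGs and 50 calls 3.54 and -5.33 points, and with chromosomes weighted equally 0.695 and -2.30 points. The difference of the centromere-near end from the interior was -2.21 points with CpGs listed in all 9 libraries.

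Low tiles were more frequent at the telomere-near end. Tiles under 20% made up 6.60% of telomere-near, 3.55% of centromere-near and 2.88% of interior tiles, while tiles over 80% made up 72.6, 72.6 and 76.0%. Telomere-near ends were unlike in this, from 1.83% under 20% on chromosome 10 to 22.8% on chromosome 15. CpG-dense tiles, with 40 or more CpGs listed in any library, were 3.56% of telomere-near, 2.13% of centromere-near and 1.80% of interior tiles. The ends also held more CpG-poor tiles, with 43.9% of centromere-near and 48.6% of telomere-near tiles at 3 to 9 CpGs against 39.9% in the interior. Tiles overlapping a protein-coding gene read 79.5% at the centromere-near and 77.0% at the telomere-near end, below the other tiles of those ends at 83.0 and 82.0%. The interior had the same order, at 80.9% for overlapping and 84.6% for other tiles.

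Set apart by CpG density, the ends differed from each other most at intermediate density. Tiles of 20 to 39 CpGs read 73.4% centromere-near, 63.2% telomere-near and 73.7% in the interior, so that the telomere-near tiles were 10.4 points lower than the interior (difference -10.4 ± 0.447, 9 of 9 libraries, exact sign permutation p = 0.00391, adjusted over 12 differences 0.00469). That test covers libraries and not chromosomes, and this class was not read without chromosome 15. The 68 tiles of the Hoxc stretch on that chromosome, described below, averaged 25.4 CpGs and 11.99%. For the centromere-near tiles of 20 to 39 CpGs the difference from the interior was -0.293 ± 0.418 points. These tiles were lower in 7 of 9 libraries, with an exact sign permutation p of 0.0781. In CpG-poor tiles of 3 to 9 CpGs the order of the ends was the other way: 83.6% centromere-near, 84.5% telomere-near and 86.1% in the interior. Tiles of 40 or more CpGs were low everywhere, at 12.3, 10.3 and 11.6%. With tile levels weighted to the interior's mix of densities, the centromere-near end was 1.22 points and the telomere-near end 2.22 points below the interior (differences -1.22 and -2.22).

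Along the first 6000 kb from each end in bins of 100 kb, the level did not fall steadily toward the extreme. The bins closest to the end read 81.9% (336 tiles, 32 of them of very high coverage, as defined below) on the centromere-near and 81.4% (391 tiles) on the telomere-near side. The lowest centromere-near bin was that from 300 kb, at 79.0%, and the lowest telomere-near bin that from 900 kb, at 74.8%, with the bins from 1000 and 1100 kb at 78.1 and 76.1%. The Hoxc genes of chromosome 15, described below, lie in the telomere-near bins from 900 and 1000 kb, and not in that from 1100 kb. Control and Susceptible means followed each other bin by bin on both sides.

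**Figure D2:**
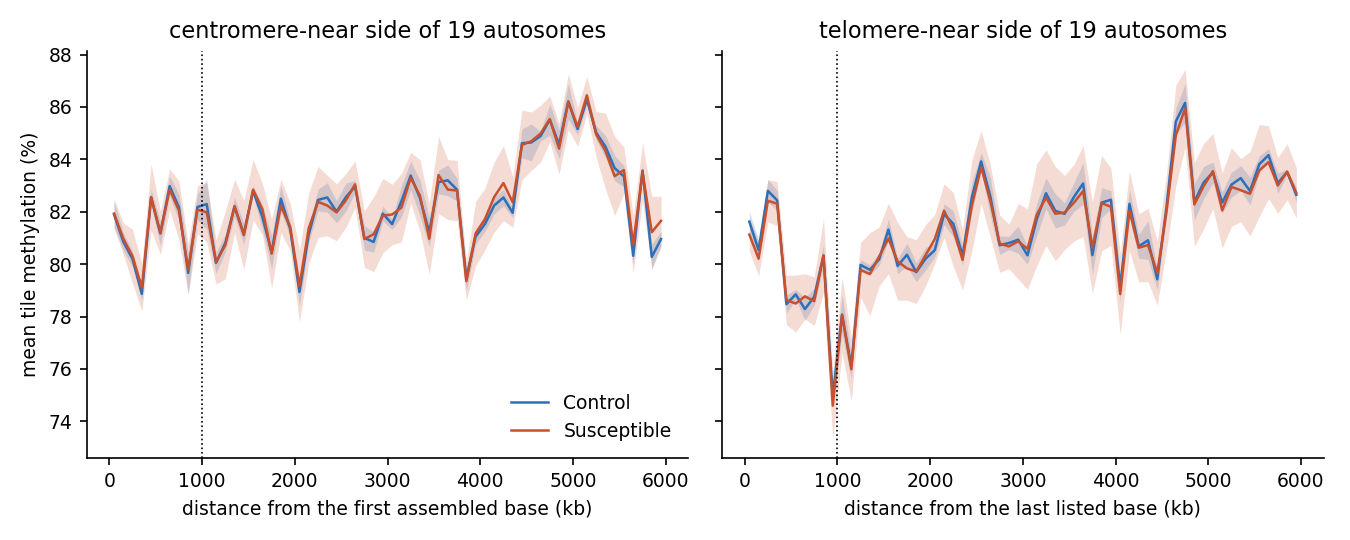
Mean tile methylation in percent (vertical axis, not starting at 0) by distance from the first assembled base (left) and from the last listed base (right) over 19 autosomes in 100-kb bins. Lines are group means, blue Control (n = 5) and orange Susceptible (n = 4), bands are 1 SD between libraries, and the dotted line marks 1000 kb; the lowest bin, 74.8%, is on the telomere-near side from 900 kb.

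Single ends differed far more between chromosomes than between mice. Over 19 chromosomes the SD of the level was 4.73 points for centromere-near and 6.21 points for telomere-near ends, and 0.751 points for the interiors. The interior SD is not a like comparison, since an interior mean covers all other passing tiles of its chromosome and an end 26 to 759. The median spread between libraries within an end was an SD of 0.753 and 0.861 points. The lowest centromere-near ends were those of chromosome 14 (65.6%, only 26 tiles passed), chromosome 7 (75.5%, 423 tiles) and chromosome 11 (76.9%, 634 tiles). The highest were those of chromosome 1 (85.5%), chromosome 15 (85.1%) and chromosome 6 (84.6%). Among telomere-near ends the lowest were chromosome 15 (59.5%, 390 tiles), chromosome 13 (75.6%, 297 tiles) and chromosome 2 (75.9%, 540 tiles), and the highest chromosome 12 (86.0%), chromosome 18 (85.6%) and chromosome 17 (85.5%). Chromosome 15 thus had 1 of the 3 highest centromere-near ends and the lowest telomere-near end. The lowest ends held more protein-coding genes than the highest. In the order named, the 3 lowest centromere-near ends held 16, 24 and 20 and the 3 highest 1, 5 and 6. Among telomere-near ends the 3 lowest held 22, 20 and 34 and the 3 highest 3, 3 and 2. Single ends departed from this. The centromere-near end of chromosome 12 held 7 and read 77.0%. The telomere-near end of chromosome 10, where 109 tiles passed, held 38 and read 84.5%. A relation of level to gene number was not tested.

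**Figure D3:**
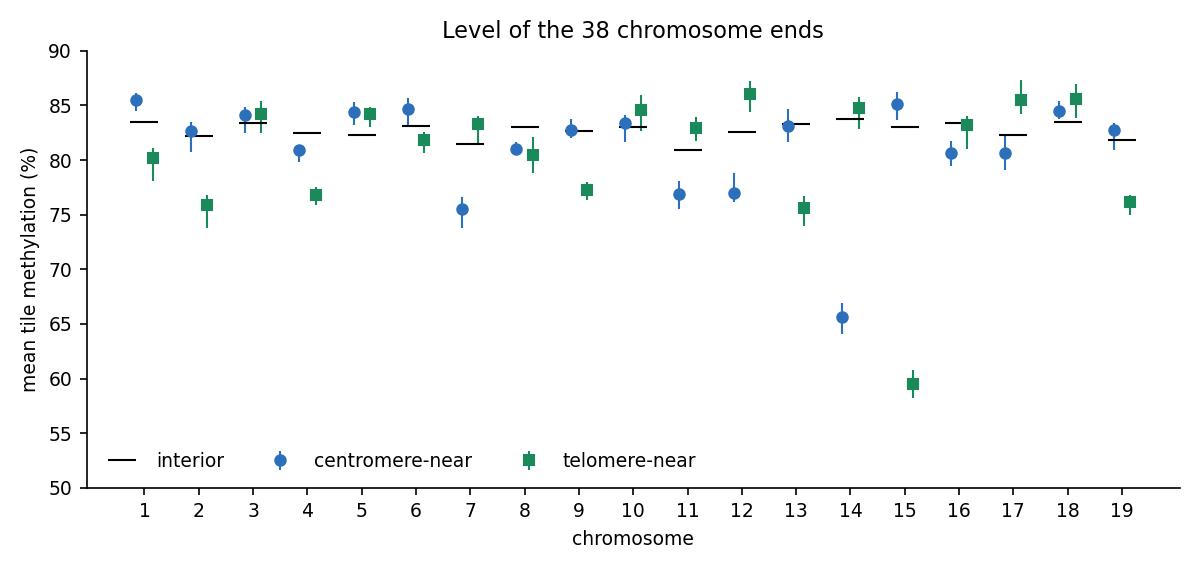
Mean tile methylation in percent (vertical axis from 50 to 90) of the 2 ends of each autosome, blue circles centromere-near and green squares telomere-near, with bars from the lowest to the highest of 9 libraries and a black dash for the interior of the chromosome. The telomere-near end of chromosome 15 (59.5%) and the centromere-near end of chromosome 14 (65.6%) stand apart from the other ends.

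The telomere-near end of chromosome 15 holds part of the Hoxc cluster, developmental regulators of position along the body axis that are kept unmethylated under Polycomb repression in many adult tissues. Its 68 tiles between Hoxc13 and Hoxc4 (chr15:102921131-103036856, cut by the 1-Mb border) read 11.99% on average, and 86.8% of them were under 20%, while the other 322 tiles of that end read 69.6%. In this stretch the level was 12.2, 13.4, 11.996, 11.8 and 12.4% in the Control libraries and 11.3, 11.7, 12.1 and 11.2% in the Susceptible libraries, which overlap. The means were 12.3% ± 0.600 (n = 5) and 11.6% ± 0.411 (n = 4), a difference of -0.786 points that is a description only, since the stretch was picked after its values were seen. Gene by gene, tiles of Hoxc11 read 2.80%, Hoxc8 4.06%, Hoxc9 9.33%, Hoxc10 10.1%, Hoxc6 12.9%, Hoxc4 15.9% and Hoxc5 31.1%. Of the other tiles of that end, 9.32% were under 20%. The 3 tiles closest to the last listed base averaged 48.8, 39.05 and 73.4% in Control and 58.5, 39.7 and 77.4% in Susceptible, in order of distance from it.

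**Figure D4:**
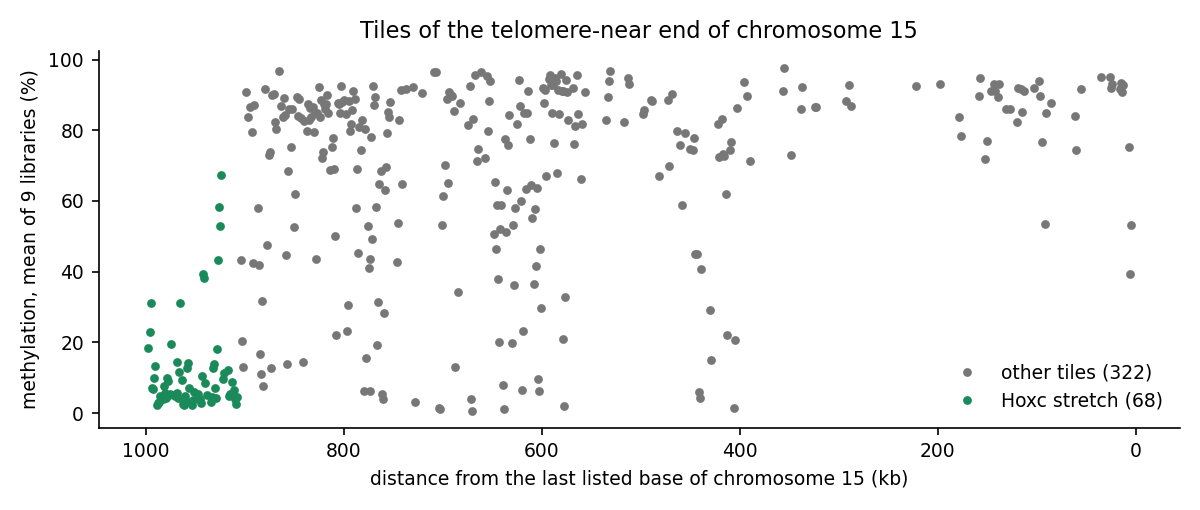
Methylation in percent (mean of 9 libraries) of each passing 1-kb tile at the telomere-near end of chromosome 15 by distance from the last listed base in kb, which runs from 1000 at the left to 0. The 68 green tiles of the Hoxc stretch average 11.99% and the 322 grey tiles 69.6%.

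The centromere-near ends stood out in coverage. A tile was called of very high coverage where its calls per CpG exceeded 3 times the library's median in any library: there were 97 such tiles centromere-near (1.45%), 31 telomere-near (0.533%) and 2432 in the interior (0.238%). They held 17.2% of all calls of the centromere-near end, 3.23% of those of the telomere-near end and 2.07% of those of the interior, and read 74.8, 75.6 and 85.6%. The centromere-near ones were clustered: 31 on chromosome 11 from base 3126001 to 3200000, where they averaged 69.8%, and 28 on chromosome 9 from the first assembled base to 3283000, where they averaged 79.8%. Chromosome 4 held 11, chromosome 6 held 6 that ranged from 34.4 to 92.6%, chromosome 10 held 5 and chromosome 12 held 3, at 90.5% on average. At the telomere-near side 16 of 31 were on chromosome 13 from base 119488001 to 119618000, around Tmem267, at 80.02%, and the single one on chromosome 1 and the pair on chromosome 19 read 21.5 and 25.9%.

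The 3 tiles of highest coverage at the centromere-near side were by far the deepest, at 3782 calls per CpG on average for chr12:3109001-3110000, 3052 for chr9:3001001-3002000 and 2096 for chr9:3006001-3007000, all outside annotated protein-coding genes. These tiles read as highly methylated, with SDs between libraries of 0.278, 0.336 and 0.924 points, from 10148 to 79891 calls per library and tile. Whether calls at this depth all belong to these loci was not tested. At chr12:3109001-3110000 the level was 86.9, 86.6, 87.4, 87.5 and 86.7% in the Control libraries and 87.2, 87.0, 87.1 and 87.0% in the Susceptible libraries. At chr9:3001001-3002000 it averaged 89.5% in Control and 89.7% in Susceptible, and at chr9:3006001-3007000 85.1% ± 0.647 and 86.2% ± 0.865. The groups overlapped in all 3 tiles, and the adjusted p of the third in the limma-moderated model was 0.997. In the 3 tiles of highest coverage telomere-near, all within Tmem267 on chromosome 13, coverage was 359.8, 294.7 and 212.3 calls per CpG and the levels were 79.9, 87.5 and 73.8%.

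Summed calls per CpG at the centromere-near end differed between the groups, a call that some other measures of coverage did not keep. Tiles were admitted by a minimum of calls and cytosines listed from 10 calls, so the test runs on a filtered quantity. Calls per listed CpG over those of the interior of the same library were 1.146, 1.143, 1.162, 1.153 and 1.140 in the Control libraries and 1.091, 1.100, 1.102 and 1.138 in the Susceptible libraries. Every Control library was above every Susceptible one, with means of 1.149 ± 0.00877 and 1.108 ± 0.0208 (exact permutation p = 0.00794, the smallest that 5 against 4 libraries allow; adjusted over both ends, 0.0159). At the telomere-near end the ratios were 1.015 ± 0.0107 and 1.024 ± 0.00620 (exact permutation p = 0.214). Without the tiles of very high coverage the centromere-near ratio was 0.9695 in Control and 0.9582 in Susceptible, a difference of -0.0113 (exact permutation p = 0.0238, adjusted 0.0476), and without chromosome 9 it was 1.070 and 1.053. The difference missed the threshold with the ratio of median tile values (0.968 and 0.958, exact p = 0.183) and with CpGs listed in all 9 libraries (1.310 and 1.262, exact p = 0.0714). Listed calls per library were higher in every Susceptible than in every Control library, and their part in this difference was not tested.

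Among the 6 tiles of highest coverage the direction was not shared between the ends. Relative to the library's interior median, calls per CpG at chr12:3109001-3110000 were 125.5, 162.0, 166.4, 185.7 and 131.2 times in the Control libraries and 72.9, 94.6, 123.5 and 112.5 times in the Susceptible libraries. All Control values were above all Susceptible values, by a narrow margin between Control 2 and Susceptible 6. At chr9:3001001-3002000 the means were 124.9 ± 18.9 and 80.4 ± 25.2 times and at chr9:3006001-3007000 76.2 ± 13.99 and 66.3 ± 10.6 times, with overlap in both. At chr13:119601001-119602000 in Tmem267 they were 10.8 ± 1.22 in Control and 13.6 ± 1.52 in Susceptible, and here every Susceptible value, from 12.3, was above every Control value, up to 12.1. These tiles were chosen for their coverage, and the values are given as a description.

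**Figure D5:**
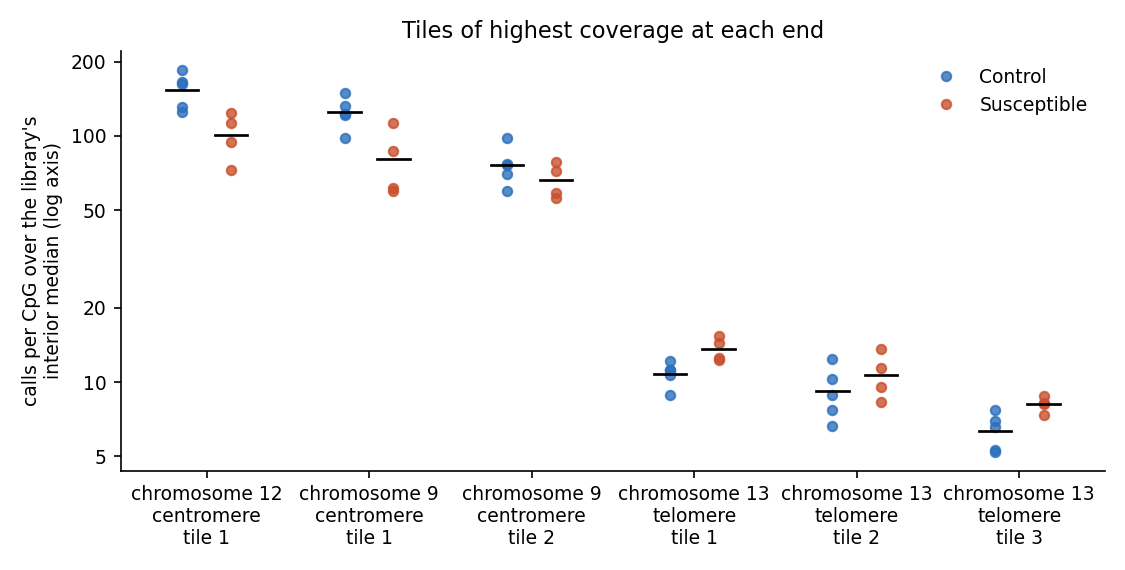
Calls per CpG of the 3 tiles of highest coverage at each end, as a multiple of the library's interior median (log axis), with 1 point per library, blue Control (n = 5) and orange Susceptible (n = 4), and a black bar for the group mean. On chromosomes 12 and 9 the Control mean is the higher, 154.2 against 100.9 in the leftmost tile, and on chromosome 13 the Susceptible mean is the higher, 13.6 against 10.8 in the leftmost telomere-near tile.

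The level of neither end differed between Control and Susceptible mice beyond the spread between libraries. The Susceptible minus Control difference was 0.0297 points at the centromere-near end (Control 81.22% ± 0.247, n = 5, Susceptible 81.25% ± 0.886, n = 4, exact permutation p = 0.929). At the telomere-near end it was -0.131 points (Control 79.38% ± 0.158, Susceptible 79.25% ± 0.958, exact permutation p = 0.921). In the interior it was -0.0432 points (exact permutation p = 0.984). The gap between the ends was 1.84 ± 0.155 points in Control and 2.002 ± 0.172 points in Susceptible (exact permutation p = 0.183), and all 6 such differences had an adjusted p of 0.984. These signs rested on single libraries: the centromere-near difference turned negative without Control 4, Susceptible 2, Susceptible 3 or Susceptible 6, and the telomere-near difference was 0.335 points without Susceptible 7 (exact permutation p = 0.0179, adjusted 0.107). Taken over summed calls instead of tile means, the differences were larger and both negative, at -0.903 points centromere-near (exact permutation p = 0.0556) and -0.988 points telomere-near (exact permutation p = 0.0397), each with an adjusted p of 0.167, and the interior difference was -0.616 points (exact permutation p = 0.294).

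By CpG density and position, 0 of 12 differences passed. The lowest p was that of CpG-dense telomere-near tiles, at 10.5% ± 0.251 in Control and 10.1% ± 0.457 in Susceptible (difference -0.445 points, exact permutation p = 0.0873, adjusted 1). Of the 38 single ends, 18 were higher and 20 lower in Susceptible, with differences from -0.696 to 0.789 points; the smallest exact permutation p was 0.143 and the smallest adjusted p 0.968. Even the low telomere-near end of chromosome 15 read 59.5% ± 0.328 in Control and 59.6% ± 1.07 in Susceptible by tile mean.

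Over summed calls, 3 of 38 end windows of 1 Mb reached an unadjusted p under 0.05 in a quasi-binomial model moderated with limma, 7.89%, against 4.31% of 2413 windows of all autosomes, and 0 passed after adjustment over all windows (0% of all windows; adjusted p = 0.935 for each of the 3; limma on logit levels also gave 3 at an unadjusted p under 0.05, not all of them the same). All 3 were lower in Susceptible. By summed calls 34 of the 38 end windows were lower in Susceptible and 4 higher (89.5% lower, against 78.7% of all windows), where tile means had split them 20 to 18. All 19 telomere-near windows and 15 of 19 centromere-near windows were lower, with differences from -2.64 to 5.34 points and a median of -0.779, against a median of -0.477 over all windows; the highest was the centromere-near window of chromosome 14, where few tiles passed, and it was 2.31 points without Control 8. The telomere-near window of chromosome 19 read 46.9, 50.7, 47.5, 50.6 and 50.1% in the Control libraries and 46.6, 46.8, 46.8 and 46.0% in the Susceptible libraries, so that the groups did not overlap, though Control 2 and Susceptible 6 nearly met. The telomere-near window of chromosome 15 read 43.0% ± 1.10 and 41.1% ± 0.665 and the centromere-near window of chromosome 5 72.4% ± 1.52 and 70.7% ± 0.531, both with overlap. The unadjusted p of that chromosome 5 window was 0.0478 in the limma-moderated model, 0.0618 with limma on logit levels, and from 0.0278 to 0.114 with 1 library left out, over 0.05 in 7 of 9 cases. Without Control 2, 8 end windows had an unadjusted p under 0.05 (21.1%, all windows 6.55%), and there were 5 (13.2%) without Control 8 (all windows 3.398%) or without Susceptible 6 (all windows 7.71%).

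Tile by tile, 0 centromere-near and 0 telomere-near tiles passed an adjusted p of 0.05 in the quasi-binomial model with limma-moderated dispersion (0% of all 1033962 tiles), and limma on logit levels also called 0. The model gave 271 centromere-near tiles (4.06%) and 239 telomere-near tiles (4.11%) at an unadjusted p under 0.05, against 4.37% of all tiles, and limma on logit levels gave 228 and 194, against 3.24% of all tiles. Of these tiles, 141 and 116 were higher (2.11 and 1.99%; all tiles, 2.18%) and 130 and 123 lower in Susceptible (1.95 and 2.11%; all tiles, 2.19%). Groups did not overlap, with Susceptible higher, in 43 and 37 tiles (0.645 and 0.636%; all tiles, 0.597%) and, with Susceptible lower, in 49 and 55 tiles (0.735 and 0.945%; all tiles, 0.958%). Means 10 points or more apart were found in 302 and 249 tiles (4.53 and 4.28%; all tiles, 4.08%).

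The 3 tiles of smallest p at each end are described here; their p chose them, and all had an adjusted p of 0.997 in the limma-moderated model. Centromere-near, a tile within Dnmt3a, the de novo DNA methyltransferase that acts in neurons, at chr12:3882001-3883000 with 6 CpGs, read 49.5, 52.3, 34.7, 47.1 and 34.5% in the Control libraries and 75.8, 54.3, 69.0 and 78.0% in the Susceptible libraries. The groups did not overlap, with Susceptible 3 the closest to the Control values. A tile within Akap9, which anchors protein kinase A at the centrosome and Golgi, at chr5:3931001-3932000 with 8 CpGs, averaged 62.3% ± 13.9 in Control and 89.5% ± 5.02 in Susceptible without overlap, from at most 80.5% to at least 84.0%. The other, at chr2:3960001-3961000 with 16 CpGs, 56650 bp from Frmd4a, averaged 83.2% ± 4.48 and 92.0% ± 0.543, also without overlap.

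Telomere-near, all 3 were lower in Susceptible. The tile at chr15:103060001-103061000 in Gm30528, the long noncoding RNA gene whose promoter is printed above, holds 42 CpGs and read 38.6, 54.9, 43.2, 25.5 and 46.6% in the Control libraries and 20.1, 27.0, 10.2 and 18.4% in the Susceptible libraries. The groups overlapped through Control 5, which was below Susceptible 3. It lies just beyond the Hoxc stretch. A tile within Tpcn2, a cation channel of endosomes and lysosomes, at chr7:145283001-145284000 averaged 55.9% ± 8.16 and 31.4% ± 4.93, and the tile at chr7:145103001-145104000, 32984 bp from the noncoding gene Gm46023, 76.4% ± 5.20 and 51.7% ± 6.20. Groups did not overlap in either.

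In 5 of the 6 tiles that varied most between libraries, 3 at each end, 1 Control library stood apart from the other Control libraries. At chr16:3598001-3599000 the level was 91.8, 69.0, 80, 0 and 90.6% in the Control libraries, and at chr6:3548001-3549000 in Vps50, part of an endosomal tethering complex, it was 84.1, 95.9, 96.3, 98.97 and 14.6%. The corresponding Susceptible values were 68.3 to 87.5% and 77.9 to 90.8%. The remaining tile, at chr13:3282001-3283000 with 4 CpGs, was spread more widely, at 72.3, 59.6, 83.1, 100 and 6.12% in the Control libraries and 63.2 to 89.3% in the Susceptible libraries. Of the 171 centromere-near tiles with an SD over 15 points, Control 5 was farthest from the other libraries in 68 and Control 8 in 65, and of the 143 telomere-near ones in 63 and 43. Interior tiles showed the same, with Control 5 farthest in 42.8% and Control 8 in 33.9% of such tiles. Control 5 and Control 8 are the libraries whose strands disagree most, and the part of that in these tiles was not tested.

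Of the CpG-densest tiles, 9 of 10 were nearly unmethylated in every library. The densest, with 158 CpGs at chr12:3807001-3808000 at the start of Dnmt3a, read 1.201% ± 0.180 in Control and 1.46% ± 0.773 in Susceptible. The others at the centromere-near side were in Kmt5b (128 CpGs, 1.05%), Dtnb (121 CpGs, 1.43%) and Patz1 (116 CpGs, 1.10%), and at the telomere-near side at Sdf4 and B3galt6 (145 CpGs), Zbtb46, a transcription factor of dendritic cells (136 CpGs, 1.11%), Dennd5b (131 CpGs, 1.21%), Nanos1, an RNA-binding repressor (131 CpGs, 1.14%), and Fndc10 (122 CpGs, 0.865%). The tile at Sdf4 and B3galt6 read 1.90, 2.999, 1.66, 1.99 and 1.81% in the Control libraries and 3.36, 2.70, 3.74 and 3.27% in the Susceptible libraries. Its means were 2.07% ± 0.532 and 3.27% ± 0.428, with Control 3 inside the Susceptible range, and the adjusted p in the limma-moderated model was 0.997. The exception lay in Cacng8, which encodes an auxiliary subunit of AMPA receptors, at chr7:3415001-3416000 with 124 CpGs. It read 31.5, 21.0, 12.8, 35.3 and 16.5% in the Control libraries and 23.2, 27.2, 17.96 and 6.96% in the Susceptible libraries. The groups overlapped over most of their range.

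Promoters at the ends were mostly unmethylated. Of the 300-base windows read in every library, 162 were centromere-near, with a mean of 16.8% and 78.4% of them under 20%, and 174 telomere-near, with a mean of 12.3% and 83.9% under 20%, against 22.2% and 72.1% in the interior. In the same limma-moderated model 0 of them passed after adjustment (0% of 17147 promoters); 13 centromere-near (8.02%) and 9 telomere-near (5.17%) had an unadjusted p under 0.05, against 6.05% of all promoters. The smallest of those was Gm30528, at 25.2, 71.0, 40.9, 47.7 and 55.9% in the Control libraries and 30.1, 30.0, 8.88 and 16.2% in the Susceptible libraries (adjusted p = 0.789, limma-moderated model). Control 2 lay within the Susceptible range there. Methylated promoters rich in CG, with at least 15 and a level over 50%, were 0 of 104 centromere-near, 4 of 111 telomere-near and 150 of 10112 interior ones. Tex19.1 at 91.8%, Tmem267 at 59.6% and Csf2ra, a receptor chain for the cytokine GM-CSF, at 71.4% were among those at the telomere-near side, and Gtsf1, a gene of the germ-line piRNA pathway with 13 CG, read 95.2%. The gene Tmem267 overlaps the chromosome 13 stretch with 16 of the 31 telomere-near tiles of very high coverage. Whether its calls all belong there was not tested.

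Several genes at the ends encode proteins that act on heterochromatin or telomeres; they are named for that role and were chosen with their values in view. Dnmt3a read 63.5% over its 104 end tiles (lowest library 60.5%, highest 67.4%). A promoter window of Dnmt3a at chr12:3806730-3807029 read 2.13, 0.388, 0.924, 0 and 0.924% in the Control libraries and 3.32, 4.56, 2.23 and 2.39% in the Susceptible libraries. These groups did not overlap, at levels of a few percent and from as few as 94 calls in a library, and the adjusted p in the limma-moderated model was 0.789. Suv39h2, a histone H3 methyltransferase of heterochromatin, read 74.6% over 9 tiles and 0.815% at its promoter. Kmt5b, a histone H4 methyltransferase, read 76.3% over 21 tiles, and Cbx5, which encodes the heterochromatin protein HP1 alpha, 67.3% over 12 tiles with 1.68% at its main CG-rich promoter window. Morc2a and Tasor2, linked to the HUSH silencing complex, read 85.9 and 77.5% over 16 and 10 tiles. Rtel1, a helicase that maintains telomeres, lies at the telomere-near end of chromosome 2 and read 88.0% over 29 tiles and 2.21% at its promoter.

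Among the 470 protein-coding genes that touch an end, 358 had at least 3 tiles. The median level was 78.0% over 157 such genes centromere-near and 75.7% over 201 telomere-near. Under 20% were 1 gene centromere-near, Rps9, a ribosomal protein gene (14.6% over 4 tiles), and 10 telomere-near, among them Hoxc4, Hoxc6, Hoxc8, Hoxc9, Hoxc10 and Hoxc11 and Nanos1 (2.83%). Over 80% were 61 and 67 genes, with Tex19.1 (94.2%) and Calml3, a calmodulin-like gene (94.0%), the highest. Between these lay 2 neuronal genes, Chrna4, a nicotinic receptor subunit, at 78.6% over 22 tiles, and Cacng8 at 71.9% over 23 tiles. Control and Susceptible means were 79.1 and 78.0% for Chrna4.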

How the data were processed

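Each of the 9 libraries has 1 deposited table of CpG cytosines by strand, with the count of calls, the percent read as C (methylated) and the percent read as T, per the file headers. The submitters' processing notes name mm10, Bismark, Bowtie and Picard, without versions or roles. The deposited percent values times the deposited counts gave whole methylated calls at 100.0% of cytosines, within rounding of the percent, and the authors list only cytosines with at least 10 calls. Repeated entries, 4 in Control 5 and 8 in Control 8, were dropped after the first. All listed CpGs of Control 2 in RefSeq promoter windows of GRCm38.p6 (335473) fell on a CG of that build, so its coordinates match.

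Strands were added, and calls were summed per 1000-bp tile. The level of a position is the mean over its tiles. Differences between groups were tested by exact permutation over 126 splits, two-sided, and within libraries by an exact sign permutation test over 512 patterns. Tiles, 1-Mb windows and promoters were tested over all autosomes with a quasi-binomial logistic model of calls, dispersion moderated with limma 3.58.1 (R 4.3.3), F test of the group, and Benjamini-Hochberg adjustment at 0.05; the code was tested on simulated data first. Tables were made with Python 3.11.15, NumPy 2.4.6, pandas 2.3.3 and pyarrow 21.0.0. Gene names and gene bounds came from RefSeq.

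Named regions were, per end, the 3 tiles of smallest p where fewer passed the threshold, the 3 lowest and 3 highest chromosome ends, the 5 CpG-densest tiles, the 3 of highest coverage and the 3 of largest SD. The members, lists and tests were chosen with earlier results of these data known. The promoter windows, the coverage of single tiles, the Hoxc stretch and the genes named by role were added after the tables were seen. At a median of 225 calls per tile, the variance between libraries of a group was 5.95 times (centromere-near) and 5.87 times (telomere-near, 229 calls) that of binomial sampling, as the median over tiles. The labels give no batch.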

Additional observations from a re-analysis of the deposited data

Results flagged for a closer look

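Of 142 sets of 4 or 5 libraries of a group looked at (levels, coverage, 38 single ends and named tiles), 17 held 1 library far from the others. Of these, 5 were among the 12 sets from tiles chosen for their spread between libraries, where the choice favours such a library. The other 130 sets held 12 (9.23%); chance gives about 1 in 20, and the sets share libraries. Susceptible 7 was the low library in 6 single ends: centromere-near on chromosome 4 (79.8%), 10 (81.7%) and 19 (80.9%) and telomere-near on chromosome 7 (81.3%), 8 (79.2%) and 16 (81.1%). It was also the lowest library over all end tiles and in the interior. Susceptible 6 was high at the centromere-near end of chromosome 12 (78.8%, the others 76.8 to 77.1%) and in the Zbtb46 tile (1.65%). Control 5 stood apart at both ends of chromosome 1 (86.1% centromere-near, 78.1% telomere-near) and at the telomere-near end of chromosome 11 (83.6%). In tiles chosen for their spread, Control 5 read 0% on chromosome 16 and 0% in Stard13 on chromosome 5, 15.1% on chromosome 1 and 17.9% on chromosome 11, and Control 8 read 14.6% in Vps50. Control 3 read 2.999% in the tile at Sdf4 and B3galt6, the other Control libraries 1.66 to 1.99% and the Susceptible libraries 2.70 to 3.74%.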

How the results depend on the processing

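The within-library differences of both ends from the interior kept sign and side of the threshold under all 11 alternatives that were not left-out libraries, with values from -2.21 to -1.22 points centromere-near and from -9.79 to -1.71 points telomere-near. The gap between the ends kept both except with ends of 500 kb (-0.192 points). Group differences in level never passed after adjustment in the settings tried, and several signs moved. Over summed calls the centromere-near difference was -0.903 points (exact permutation p = 0.0556, adjusted 0.167), the telomere-near one -0.988 points (exact permutation p = 0.0397, adjusted 0.167) and centromere-near minus interior -0.287, and with ends of 2 Mb the centromere-near difference was -0.00124 points. Leaving out 1 library in turn gave -0.266 to 0.439 points centromere-near, -0.389 to 0.335 telomere-near, -0.402 to 0.536 in the interior, -0.0968 to 0.136 for centromere-near minus interior and -0.201 to 0.0132 for telomere-near minus interior. Tile deviations of Control 2 and Susceptible 2 correlated at 0.0213 and those of Control 3 and Susceptible 3 at -0.0328. Such correlations cannot exclude a shared block. Numbers 2 and 3 occur in both groups and were taken as names of different mice. Taken over only the same-number pairs, Susceptible 2 minus Control 2 and Susceptible 3 minus Control 3, the mean differences were 0.167 telomere-near and 0.305 interior. They were -0.0197 for the gap between the ends and -0.158 for centromere-near minus interior. The other libraries do not enter these means. Limma with number as a block, whose group term rests on the same pairs, gave 329 centromere-near and 284 telomere-near tiles at an unadjusted p under 0.05 (4.93 and 4.88%, all tiles 4.78%), with 0 past adjustment.

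Tile counts at an unadjusted p under 0.05 were 149 and 144 with at least 5 CpGs and 50 calls, 177 centromere-near with CpGs listed in all 9 libraries, 131 and 88 with ends of 500 kb and 588 and 679 with ends of 2 Mb, in each case 3.67 to 4.67% of those tiles, against 4.25, 4.60, 4.37 and 4.37% of all tiles in that order. With the same tiles and 1 library left out they ranged from 187 to 341 centromere-near and from 163 to 304 telomere-near (all tiles, 2.83 to 5.36%). No alternative gave an end tile or end window past the threshold. Leaving out 1 library gave 2 to 8 end windows at an unadjusted p under 0.05 (all windows, 2.28 to 7.71%). The coverage difference at the centromere-near end lost its call with median tile values (-0.00977) and with CpGs listed in all 9 libraries (-0.0489). It ranged from -0.0508 to -0.0351 with 1 library left out. Without a Control library the adjusted exact permutation p was 0.0571, the smallest that 4 against 4 allow while the telomere-near p is above it. Alternatives on chromosome 15, equal weights and coverage were chosen after seeing the data. Repeats in the end tiles, whose sequence was not used here, limit how surely calls belong to their tile.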

Other observations

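The ends differed in gene content. Protein-coding genes with their midpoint there numbered 10.1 per Mb centromere-near and 14.1 per Mb telomere-near, against 8.54 per Mb in the interior. Olfactory receptor genes (Olfr) numbered 36 telomere-near (1.89 per Mb), on 2 chromosomes, and 5 centromere-near (0.263 per Mb), against 0.583 per Mb in the interior. Vomeronasal receptor genes (Vmn1r and Vmn2r) numbered 13 at each side (0.684 per Mb), on 5 chromosomes each, against 0.252 per Mb in the interior. Few of their tiles passed the minimum: the 7 telomere-near Olfr tiles read 87.0% (73.5 to 95.7%) and the 19 telomere-near vomeronasal tiles 89.0% (46.6 to 97.6%). The 5 centromere-near Olfr tiles read 77.6% (69.1 to 90.3%). Tiles of microRNA genes read 78.6% over 7 tiles centromere-near and 53.0% over 12 tiles telomere-near.

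The telomere repeat unit TTAGGG, searched on both strands in the 250 bases before gene starts, occurred in 8.18% of 318 centromere-near, 10.3% of 339 telomere-near and 9.30% of 30739 interior promoters. Tcstv1 and Tcstv3, genes of the early embryo at the telomere-near end of chromosome 13, had 0 tiles past the minimum.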
